A study of Drosophila melanogaster with 9 samples.

Results

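The 7 rhodopsin genes of Drosophila melanogaster are ninaE (which encodes Rh1), Rh2, Rh3, Rh4, Rh5, Rh6 and Rh7. They were picked by gene symbol from 17478 genes in the deposited tables, and all 7 were measured and tested in both comparisons. RNA of whole adult heads was sequenced from 3 groups of 3 libraries, namely wild type (WT), flies with the A512P allele of kdm5, and flies with the JmjC* allele of kdm5, whose label calls it demethylase inactive. All flies were untreated adults aged 3 to 5 days. KDM5 is a histone demethylase that acts through its JmjC domain, and A512P replaces an alanine of the protein by proline. The sources used here do not state how the alleles were made, the sex of the flies, or whether the 3 libraries of a genotype are separate collections of flies. The p-values therefore measure the spread among these libraries alone, and that spread may be technical.

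Rhodopsins are light-activated receptors that start phototransduction through a Gq protein and a phospholipase C. Each facet of the compound eye, an ommatidium, holds outer photoreceptors R1 to R6, which use ninaE for motion and dim-light vision, and inner photoreceptors R7 and R8, which serve colour vision. In pale ommatidia R7 carries Rh3 and R8 carries Rh5, while in yellow ommatidia R7 carries Rh4 and R8 carries Rh6. Rh3 is also the opsin of the inner cells of the dorsal rim, which detect polarized light. Rh2 is the opsin of the ocelli, the simple eyes on the vertex of the head, and Rh7 has been described in clock neurons of the brain. The comparisons ask how each kdm5 allele alters transcripts of the head, and here how it alters the opsins of these cell classes.

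The values come from the authors' own comparisons of A512P with WT and of JmjC* with WT, deposited as 2 tables, which share the WT libraries. Each gene has 1 mean normalized count over all libraries, a log2 fold change of mutant over WT with its standard error (SE), and an adjusted p. A gene with an adjusted p under 0.05 is called. Values of single libraries were not used here, so the depth of each library is unknown in this account. The kdm5 gene itself, named lid in the tables, had a log2 fold change of -0.081 ± 0.095 in A512P and -0.11 ± 0.095 in JmjC* in the authors' deposited table, with an adjusted p of 0.61 and 0.431. As both alleles are described as changing the protein, these values do not check the labels.

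The outer opsin ninaE stood far above the other opsins in level. It was 1383 times Rh7, the lowest, per kb of exon, and 708 times per kb of coding sequence. The ninaE transcript had a mean normalized count of 756320 in the authors' deposited table, 2.15% of the summed counts of all genes and second only to the mitochondrial mt:lrRNA among all genes. Per kb of exon it stood at 476272, which is 91.1% of the summed per-kb level of all 7 opsins. The R7 opsins followed on the same per-kb scale, with Rh4 at 16740 and Rh3 at 12062. The R8 opsins were lower, with Rh6 at 8620 and Rh5 at 3684 per kb. The ocellar opsin Rh2 lay between them at 5139 per kb, and Rh7 was lowest at 344 per kb. In both inner cell types the opsin of yellow ommatidia was the more abundant, Rh4 at 1.39 times Rh3 and Rh6 at 2.34 times Rh5 per kb of exon. The outer opsin stood at 11.6 times the sum of the 4 inner opsins per kb. These levels are single means over groups and carry no error here, so neighbours in their order could not be tested.

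**Figure D1:**
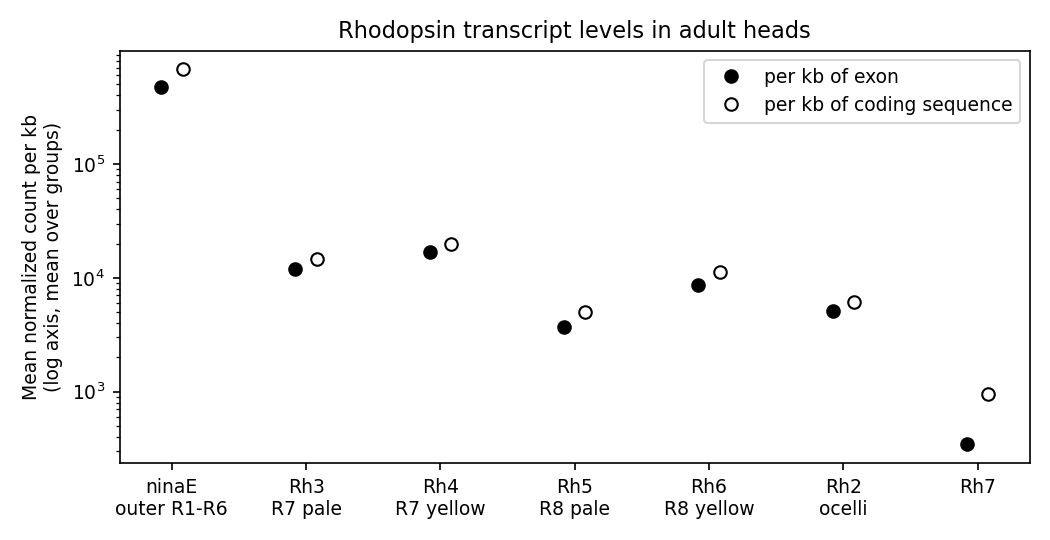
Mean normalized count per kb (log axis) of each rhodopsin gene, filled per kb of exon and open per kb of coding sequence; each point is 1 mean over all libraries, without error. The ninaE point lies at 476272 per kb of exon, above Rh4 at 16740, and Rh7 lies lowest at 344.

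Each gene is placed on the annotation of BDGP6.54, in which all 7 have the exon length given in the authors' tables. On chromosome 3R lie ninaE (FBgn0002940; 19886255 to 19888206, minus strand, 5 exons), Rh2 (FBgn0003248; 18899423 to 18901019, plus strand, 4 exons), Rh3 (FBgn0003249; 20081060 to 20082450, minus strand, 1 exon) and Rh6 (FBgn0019940; 15483158 to 15484699, plus strand, 3 exons). Rh4 (FBgn0003250; 16852527 to 16862517, minus strand, 2 exons) and Rh7 (FBgn0036260; 12164205 to 12175482, minus strand, 4 exons) lie on 3L, and Rh5 (FBgn0014019; 12008153 to 12009832, plus strand, 3 exons) on 2L. The encoded proteins have 362 (Rh6) to 483 (Rh7) residues, and ninaE encodes 373. The intron of Rh4 spans sina, sinah and CG13029 on the opposite strand, none of which shares exon sequence with it. Opsins are related in sequence, and how reads matching more than 1 opsin were counted is not stated in the sources used here.

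In heads of A512P flies, the outer opsin ninaE, the inner opsins Rh3, Rh5 and Rh6, and Rh7 fell to between 74.0% and 84.5% of the WT level. The inner opsin Rh4 and the ocellar opsin Rh2 did not pass. That is 5 of 7 members lower and 0 higher by the authors' deposited table, against 10.8% called lower and 10.2% called higher among all 11608 tested genes. Among tested genes with a mean normalized count of at least 1000, as all opsins have, 16.2% were called lower. The median log2 fold change of the 7 opsins was -0.31, and that of all tested genes 0.0027, in the authors' deposited table. For tested genes with a mean normalized count of at least 1000 the median was -0.046.

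The outer opsin ninaE fell by 0.24 ± 0.071 (SE) in log2 units in A512P in the authors' deposited table, with an adjusted p of 0.005, which puts it at 84.5% of WT with a 95% interval of 76.7% to 93.0%. Among the R7 opsins, Rh3 fell by 0.37 ± 0.090 in the authors' deposited table, with an adjusted p of 6.83e-04, to 77.6% of WT (68.7% to 87.8%). Its yellow counterpart Rh4 had a value of log2 -0.16 ± 0.084 in the authors' deposited table, short of the threshold (adjusted p = 0.173), with an interval of 79.9% to 100.4% of WT. A fall of Rh4 as large as that of ninaE therefore lies within its interval. Among the R8 opsins, both were lower by about the same amount. Rh5 fell by 0.34 ± 0.078 in log2 units in the authors' deposited table, with an adjusted p of 2.53e-04, to 79.1% of WT. Rh6 fell by 0.31 ± 0.088 in the authors' deposited table, with an adjusted p of 0.00362, to 80.5% of WT.

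The ocellar opsin Rh2 was closest to WT in A512P, at log2 -0.073 ± 0.073 in the authors' deposited table, with an adjusted p of 0.54, or 95.1% of WT with an interval of 86.1% to 105.0%. Rh7 had the most negative value, -0.43 ± 0.12 in the authors' deposited table, with an adjusted p of 0.004, or 74.0% of WT. Its SE was the largest of the 7, and its interval of 62.6% to 87.6% covers the values of every other called opsin. Against the median of the phototransduction cascade in place of all genes, 0 of 7 opsins passed in A512P, with Rh3 at -0.21 (adjusted p = 0.0562) and Rh5 at -0.19 (adjusted p = 0.0548). That centring moves every gene by the same amount, and the share of all genes then called was not counted.

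In heads of JmjC* flies, the opsins of pale ommatidia, Rh3 and Rh5, fell, while those of yellow ommatidia, Rh4 and Rh6, had values slightly above WT that did not pass. Rh7 also fell, so that 3 of 7 members were called lower and 0 higher by the authors' deposited table. Of all 11898 tested genes 14.6% were called lower and 14.2% higher, and 22.8% of those with a mean normalized count of at least 1000 were called lower. The median of the 7 opsins was log2 -0.13 and that of all tested genes 0.011 in the authors' deposited table. For tested genes with a mean normalized count of at least 1000 the median was -0.054, closer to that of the opsins.

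The outer opsin ninaE had a value of log2 -0.084 ± 0.071 in JmjC* in the authors' deposited table, with an adjusted p of 0.404, or 94.4% of WT with an interval of 85.7% to 103.9%. The ocellar opsin Rh2 was at -0.13 ± 0.073 in the authors' deposited table, with an adjusted p of 0.181, or 91.4% of WT. Neither passed, and the interval of ninaE reaches down close to its 84.5% of WT in A512P. The pale R7 opsin Rh3 fell by 0.24 ± 0.090 in the authors' deposited table, with an adjusted p of 0.0321, to 84.8% of WT (75% to 95.8%). The yellow R7 opsin Rh4 was at 0.045 ± 0.084 in the authors' deposited table, with an adjusted p of 0.735, or 103.2% of WT (92.1% to 115.6%). The pale R8 opsin Rh5 fell by 0.27 ± 0.078 in the authors' deposited table, with an adjusted p of 0.00288, to 82.7% of WT (74.3% to 92.0%). The yellow R8 opsin Rh6 was at 0.096 ± 0.088 in the authors' deposited table, with an adjusted p of 0.449, or 106.9% of WT (94.8% to 120.5%). Rh7 fell by 0.33 ± 0.12 in the authors' deposited table, with an adjusted p of 0.0314, to 79.7% of WT. Against the median of the phototransduction cascade, the 3 calls ended and 1 opsin, Rh6, was called higher, at 0.22 (adjusted p = 0.0428). Every gene moves up under that centring. The share of all genes then called higher was not counted, so this call has no background beside it.

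**Figure D2:**
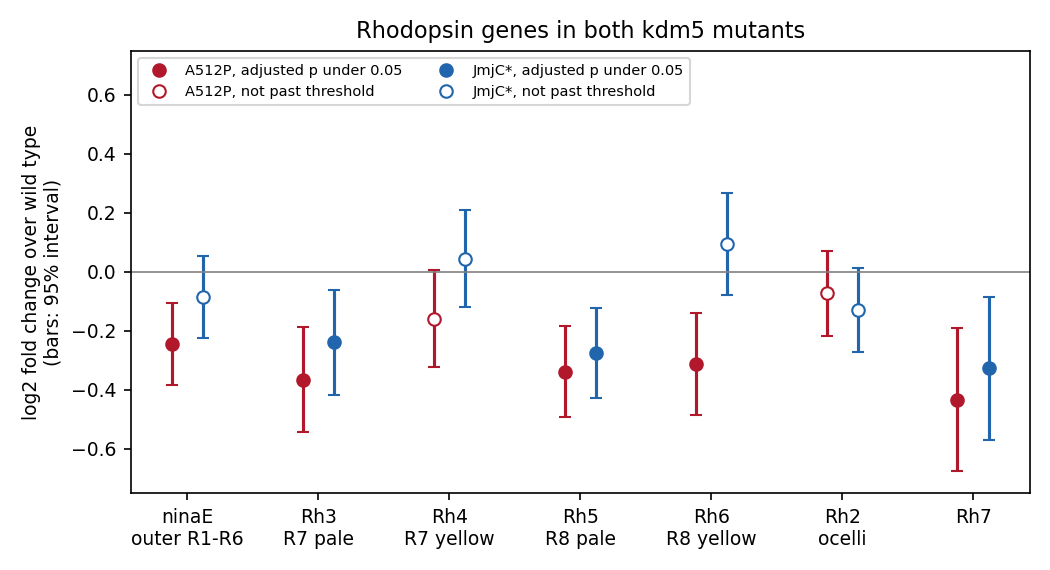
Log2 fold change over wild type of each rhodopsin gene in A512P (red) and JmjC* (blue), from the authors' deposited tables, with 95% intervals; filled points have an adjusted p under 0.05 and open points do not. In A512P all 7 points lie below 0, from -0.43 to -0.073; in JmjC* Rh4 and Rh6 lie above 0, at 0.045 and 0.096.

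Outer, inner and ocellar opsins were compared through differences of their log2 fold changes. The errors of genes measured in the same libraries are not independent, so the intervals, which take them as independent, are a description. In A512P, ninaE minus the mean of Rh3 to Rh6 was 0.050 ± 0.083 (interval -0.11 to 0.21), and in JmjC* it was 0.0092 ± 0.083 (-0.15 to 0.17). The outer opsin and the mean of the inner opsins thus differed by less than their SE in both mutants. The ocellar opsin Rh2 minus ninaE was 0.17 ± 0.10 (-0.029 to 0.37) in A512P and -0.045 ± 0.10 (-0.24 to 0.15) in JmjC*, and both intervals include 0. Rh2 minus the mean of Rh3 to Rh6, a difference added after the values had been seen and not tested, was 0.22 ± 0.084 (0.055 to 0.39) in A512P, where Rh2 was thus less reduced than the mean of the inner opsins in these values. Of the inner opsins, Rh4 at -0.16 ± 0.084 was nearest to Rh2 at -0.073 ± 0.073. In JmjC* Rh2 minus the mean of Rh3 to Rh6 was -0.036 ± 0.084 (-0.20 to 0.13).

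The split of pale and yellow opsins was singled out after the values had been seen, and no test was made of it. In JmjC*, Rh3 minus Rh4 was -0.28 ± 0.12 and Rh5 minus Rh6 was -0.37 ± 0.12 on the log2 scale, so that the Rh3 to Rh4 ratio stood at 82.1% and the Rh5 to Rh6 ratio at 77.4% of their WT values. In A512P, Rh3 minus Rh4 was -0.21 ± 0.12, but Rh5 minus Rh6 was only -0.025 ± 0.12, leaving the R8 ratio at 98.3% of WT. Between the alleles the R8 pair differs more than the R7 pair in these values, with Rh6 called lower in A512P and not in JmjC*. In whole heads, fewer cells of a type and less RNA per cell cannot be told apart.

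The alleles were compared directly through JmjC* minus A512P, adjusted over the 11608 genes tested in both tables. With the errors of both comparisons taken as independent, which overstates the SE because both use the same WT libraries, 0 of 7 opsins passed, by Benjamini-Hochberg adjustment of a normal test that was two-sided (1 at an unadjusted p under 0.05), against 0.879% of all genes. With errors correlated at 0.5, as a shared control group of equal size gives, 1 of 7 passed, against 3.7% of all genes (3 of 7 at an unadjusted p under 0.05). That gene was Rh6, which was 0.41 higher in JmjC* than in A512P on the log2 scale, or 132.7% of the A512P level. Its SE was 0.12 with independent errors (adjusted p = 0.0976) and 0.088 with correlated errors (adjusted p = 3.41e-04). For ninaE the difference was 0.16 ± 0.10 (adjusted p = 0.9997, interval -0.037 to 0.36; 0.269 with correlated errors), and for Rh4 0.20 ± 0.12 (adjusted p = 0.9997, interval -0.028 to 0.44; 0.202 with correlated errors). The other members differed by -0.056 (Rh2) to 0.13 (Rh3), each by less than 1 SE with independent errors.

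**Figure D3:**
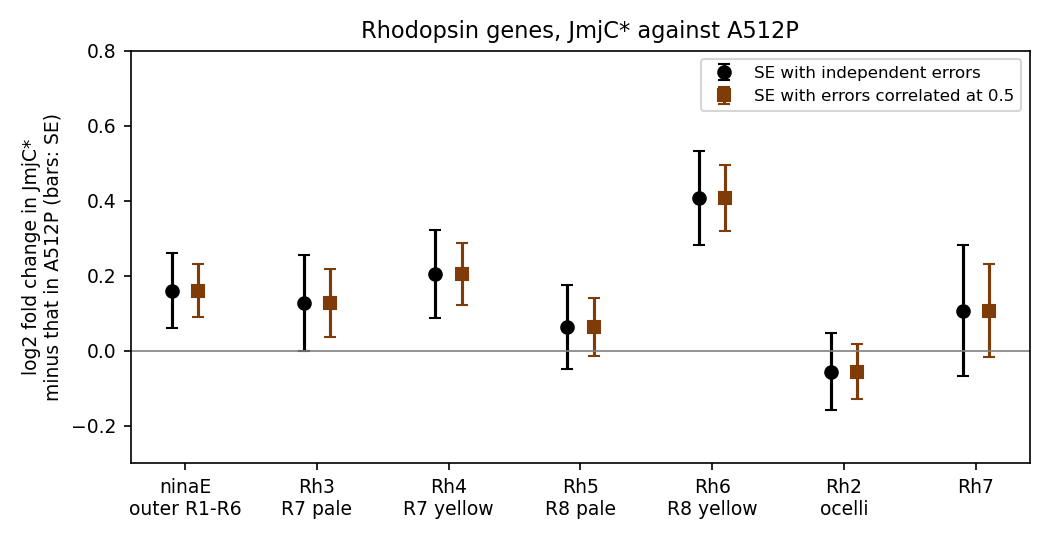
Log2 fold change in JmjC* minus that in A512P for each rhodopsin gene, with the SE for independent errors (circles) and for errors correlated at 0.5 (squares). Rh6 lies highest at 0.41, and Rh2 lies below 0, at -0.056.

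Other genes of the eye were counted in 5 lists that hold no opsin. Of 79 tested members, 21 fell and 3 rose in A512P, and 18 fell and 9 rose in JmjC*, by the authors' deposited table. The share that fell in A512P was 26.6%, above the 16.2% of all genes with a mean normalized count of at least 1000, while in JmjC* it was 22.8%, the same as the 22.8% of such genes. Some of the 79 have a lower mean normalized count, so such genes are not a matched set. The share that rose was 3.8% in A512P and 11.4% in JmjC*, below the 10.2% and 14.2% of all tested genes. Rises were not counted among genes with a mean normalized count of at least 1000, so this background differs from that of the falls. The medians of the 79 eye genes were log2 -0.10 and -0.079 in the authors' deposited table, closer to 0 than the -0.31 and -0.13 of the opsins. In the phototransduction cascade, which carries the signal from rhodopsin to the TRP channels, 8 of 23 genes fell and 1 rose in A512P (median -0.15), and 7 fell and 2 rose in JmjC* (median -0.12), by the authors' deposited table. Arr1, an arrestin that binds activated rhodopsin, was at log2 -0.34 ± 0.070 in A512P (adjusted p = 3.00e-05) and -0.044 ± 0.070 in JmjC* (adjusted p = 0.691) in the authors' deposited table. The channel gene trp fell in both mutants, to log2 values of -0.23 ± 0.075 and -0.37 ± 0.075 in the authors' deposited table, with an adjusted p of 0.0136 and 9.19e-06. The genes trpl and Arr2, named after their values were seen, were not called lower. The channel gene trpl was at 0.056 ± 0.088 in A512P and rose by 0.41 ± 0.088 in JmjC* (adjusted p = 0.72 and 3.51e-05) in the authors' deposited table. The arrestin gene Arr2 was at -0.12 ± 0.068 and 0.082 ± 0.068 there (adjusted p = 0.221 and 0.396). The largest fall of this list in A512P was that of laza, a lipid phosphate phosphatase of photoreceptors, at -0.53 ± 0.077 in the authors' deposited table, with an adjusted p of 3.53e-10.

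Genes that mature rhodopsin or supply its chromophore included falls in both mutants and rises in JmjC*. In A512P 4 of 11 tested fell and 0 rose, and in JmjC* 3 fell and 2 rose, counted in the authors' deposited table. The shares that fell were 36.4% and 27.3%. Among all tested genes 10.8% fell and 10.2% rose in A512P, and 14.6% fell and 14.2% rose in JmjC*. Among those with a mean normalized count of at least 1000, 16.2% and 22.8% fell, so the share in JmjC* was near that of such genes. The oxygenase gene ninaB, which cleaves carotenoids to make retinal, fell by 0.45 ± 0.092 in A512P (adjusted p = 1.67e-05) and stood at -0.18 ± 0.092 in JmjC* (adjusted p = 0.13) in the authors' deposited table. The chaperone gene ninaA, whose cyclophilin brings Rh1 out of the endoplasmic reticulum, rose by 0.38 ± 0.082 in JmjC* in the authors' deposited table, with an adjusted p of 4.20e-05, and was at 0.13 ± 0.083 in A512P (adjusted p = 0.303). The retinol dehydrogenase gene rdhB, of the pathway that makes the fly's chromophore, fell in both, with log2 values of -0.53 ± 0.12 and -0.88 ± 0.12 in the authors' deposited table, with an adjusted p of 2.63e-04 and 4.54e-11. In the list of rhabdomere and eye structure, 4 of 8 fell and 1 rose in A512P, and 3 fell and 1 rose in JmjC*, by the authors' deposited table. That is 50% and 37.5% lower and 12.5% higher in each. The smallest adjusted p of that list was that of retinin, a protein of the corneal lens, at -0.32 ± 0.084 in A512P and -0.73 ± 0.084 in JmjC* in the authors' deposited table, with an adjusted p of 0.00167 and 3.59e-16. There eys, whose secreted protein opens the space between rhabdomeres, was at -0.52 ± 0.13 and -0.58 ± 0.13, and the polarity gene sdt at 0.33 ± 0.079 and 0.41 ± 0.078, in the authors' deposited table. The share that fell in the histamine cycle, through which photoreceptors signal to the brain, was 25% in each mutant, in JmjC* near the 22.8% above. This list gave 2 falls and 0 rises among 8 in each mutant by the authors' deposited table. The falls were those of Hdc, the histidine decarboxylase of photoreceptors, at -0.31 ± 0.089 and -0.25 ± 0.089, and Lovit (CG45782 in the tables), a synaptic vesicle transporter needed to store histamine, at -0.56 ± 0.087 and -0.73 ± 0.088, in the authors' deposited table.

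In the list of regulators of opsin choice and other photoreceptor transcription factors, most did not pass. By the authors' deposited table, 3 of 29 fell and 1 rose in A512P, and 3 fell and 4 rose in JmjC*. These shares, 10.3% lower in each mutant, 3.45% higher in A512P and 13.8% higher in JmjC*, were near or below those of all tested genes (10.8% and 14.6% lower, 10.2% and 14.2% higher). The homeobox gene oc (orthodenticle), an activator of Rh3 and Rh5, fell by 0.33 ± 0.096 in JmjC* in the authors' deposited table, with an adjusted p of 0.00431, and was at -0.21 ± 0.096 in A512P (adjusted p = 0.105). The gene pros, which keeps R8 opsins out of R7, fell, with log2 values of -0.35 ± 0.096 in A512P and -0.50 ± 0.096 in JmjC* in the authors' deposited table, with an adjusted p of 0.00223 and 2.38e-06. The eye selector gene ey rose in both, by 0.30 ± 0.075 and 0.35 ± 0.075 in the authors' deposited table, with an adjusted p of 8.36e-04 and 4.67e-05. In R8, melt promotes Rh5 and wts, which it opposes, promotes Rh6. The gene melt rose by 0.35 ± 0.11 in JmjC* in the authors' deposited table, with an adjusted p of 0.00989, and was at 0.29 ± 0.11 in A512P (adjusted p = 0.0542). The gene wts, named after its values were seen, was at -0.22 ± 0.088 in A512P and -0.14 ± 0.088 in JmjC* in the authors' deposited table, neither past the threshold (adjusted p = 0.051 and 0.22). Also named after its values were seen, ss, which selects Rh4 in yellow R7 cells, fell by 0.25 ± 0.092 in each mutant in the authors' deposited table, with an adjusted p of 0.0372 and 0.0278. Most of these genes are also transcribed outside photoreceptors, and whole heads do not separate the sources.

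Markers of neurons, glia, fat body, muscle and blood cells were counted beside the opsins, in lists of 7 genes. Among all tested genes 10.8% were lower and 10.2% higher in A512P, and 14.6% lower and 14.2% higher in JmjC*. Of those with a mean normalized count of at least 1000, 16.2% were lower in A512P and 22.8% in JmjC*. Photoreceptors are neurons too, so the neuronal list is not separate from them. Neuronal markers gave 2 falls and 0 rises among 7 in A512P and 3 falls and 0 rises in JmjC*, with medians of log2 -0.16 and -0.23 in the authors' deposited table. Glial markers gave 2 falls and 0 rises among 7 in A512P and 5 falls and 1 rise in JmjC* (medians -0.10 and -0.19), and fat body markers 0 either way among 7 in each (medians -0.064 and -0.24), by the authors' deposited table. The fat body list is imprecise, as its yolk protein genes Yp1, Yp2 and Yp3 had an SE of 0.21 to 0.22 in each mutant. Its gene Fbp1 had a mean normalized count of only 15.7. Muscle markers gave 1 fall and 1 rise among 7 in A512P and 2 falls and 1 rise in JmjC* (medians 0.0025 and -0.23), by the authors' deposited table. Blood cell markers gave 0 falls with 3 rises in A512P and 4 in JmjC*, and had the highest medians of the 10 lists, 0.38 and 0.63, in the authors' deposited table. The defining genes elav of neurons, repo of glia and trp of photoreceptors had mean normalized counts of 7366, 2184 and 87442 in the authors' deposited table. There elav was at log2 0.030 ± 0.12 in A512P and -0.033 ± 0.12 in JmjC* (adjusted p = 0.904 and 0.871). The glial gene repo fell, with values of -0.28 ± 0.080 and -0.20 ± 0.080 (adjusted p = 0.00419 and 0.0458), and trp fell in both as given above. The part of tissue make-up in the opsin values was not tested.

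**Figure D4:**
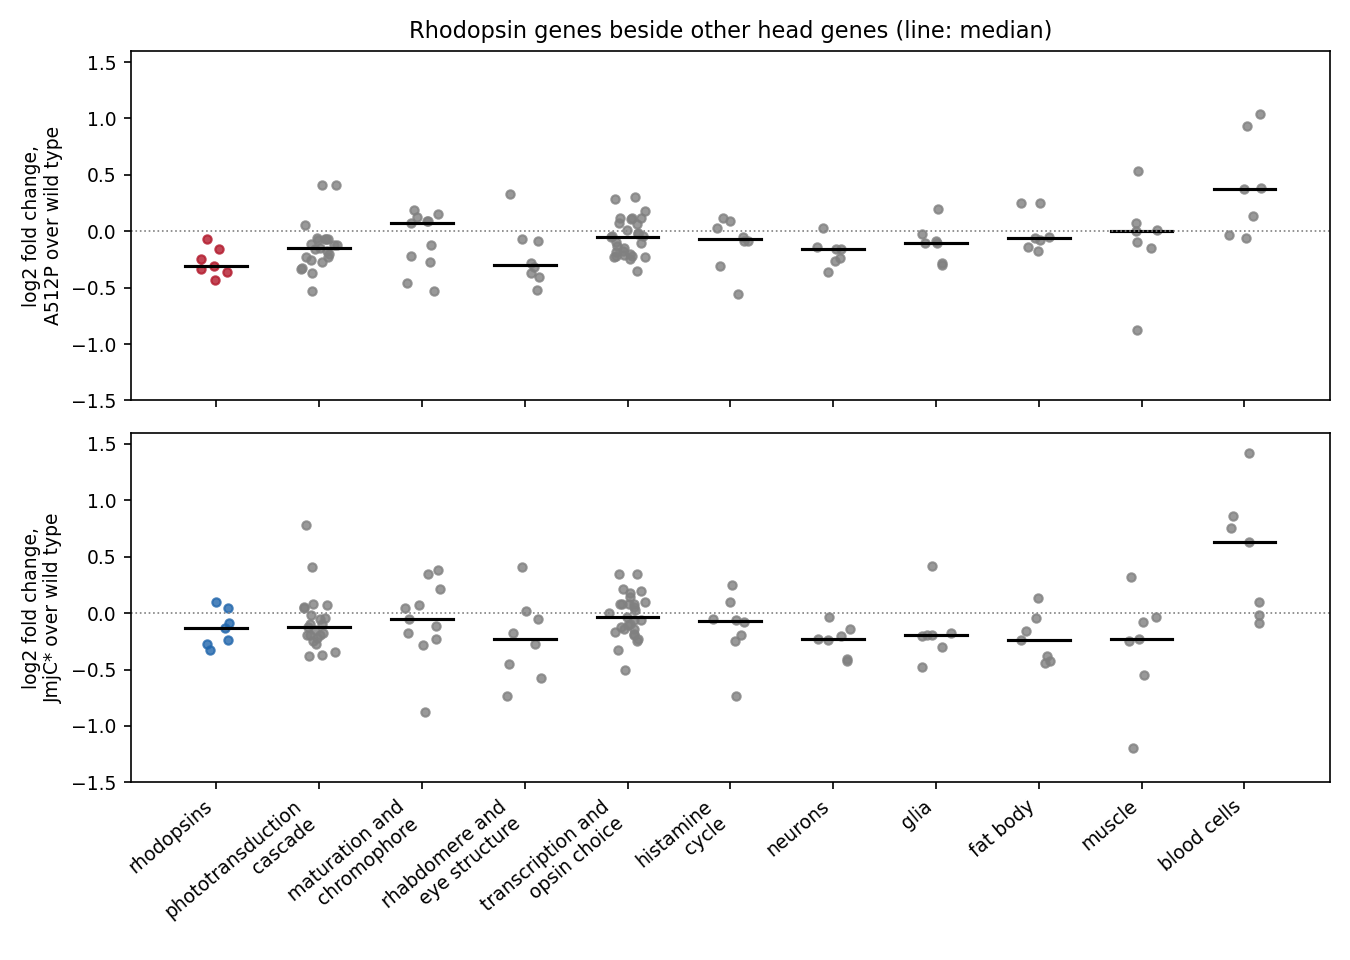
Log2 fold change over wild type of the 7 rhodopsin genes (coloured) and of tested genes in 10 lists (grey) in A512P (top) and JmjC* (bottom), from the authors' deposited tables; each point is a gene and each line a median. The opsin median lies at -0.31 in A512P and -0.13 in JmjC*, beside -0.15 and -0.12 for the phototransduction cascade.

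The pair of log2 fold changes of each opsin was set beside those of the 79 eye genes by Euclidean distance over the 2 comparisons. Nearest to ninaE were pinta, a retinoid-binding protein of the eye (distance 0.046), the transcription factor genes lz (0.047) and gl (0.059). Nearest to Rh3 were prom, a rhabdomere protein (0.032), Hdc (0.053) and the myosin gene ninaC (0.094). The same first and second genes lay nearest to Rh5, prom at 0.029 and Hdc at 0.038, followed by rtp at 0.080. Nearest to Rh7 were rtp (0.063), prom (0.087) and Calx (0.12). With only 2 comparisons that share their WT libraries, such a distance describes the values and is no correlation.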

How the data were processed

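Polyadenylated RNA of whole heads was sequenced in 9 libraries, 3 for each genotype, grouped by their titles. The submitters' processing notes name STAR and DESeq2. The sources used here give neither versions, genome build nor annotation, nor whether reads were counted by strand. Per the file headers, the authors deposited for each gene a mean normalized count (the signal, baseMean), a log2 fold change with its SE, a Wald score, a p-value and an adjusted p-value, and the summed exon length. The adjusted p equalled Benjamini-Hochberg over the genes given one (11608 for A512P, 11898 for JmjC*). No model was refitted. The SE stays small at counts near 0, as shrinkage gives, so changes of weakly expressed genes are understated.

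Intervals of 95%, percent of wild type (2 to the power of the log2 value), counts per kb, and differences between genes and alleles were computed with Python 3.11.15, pandas 2.3.3 and SciPy 1.17.1. The test between alleles was tested on simulated data. The members, the 10 gene lists (115 genes, 7 matched by current symbol) and the tests were chosen with earlier results of these data known. Named were all opsins, up to 4 genes per list with the smallest adjusted p, the markers elav, repo and trp, and the 3 eye genes nearest to ninaE and to each opsin called in both comparisons; exceptions are marked. Alternatives were a threshold of 0.01, other gene filters, recentring and correlated errors.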

Additional observations from a re-analysis of the deposited data

How the results depend on the processing

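The count of called opsins stayed at 5 in A512P and 3 in JmjC* when p-values were adjusted over every gene with one, over genes with a mean normalized count of at least 50, or after centring on the median of all tested genes. At an adjusted p under 0.01, A512P kept a count of 5 and JmjC* gave 1. Centring on the median of the phototransduction cascade (log2 -0.15 and -0.12) left 0 calls in A512P and 1 in JmjC*, the latter Rh6, higher by 0.22 (adjusted p = 0.0428). The share of all genes called was not counted at 0.01 or under this centring, so these counts have no background beside them. Under that centring, Rh2 in A512P turned from -0.073 to 0.078 and ninaE in JmjC* from -0.084 to 0.036, neither past the threshold. The opsin falls are therefore measured against all genes of the head. Between alleles, 0 opsins passed with independent errors and 1 with errors correlated at 0.5. The difference of ninaE and the inner opsins kept its sign with a weighted mean, with Rh3 and Rh4 alone or with Rh5 and Rh6 alone, between 0.018 and 0.081 in A512P and between 0.0057 and 0.015 in JmjC*. Each of those pairs joins a pale and a yellow opsin, so the check does not reach the split between them. In JmjC* ninaE, at -0.084, lay between the mean of Rh3 and Rh5 (-0.26) and that of Rh4 and Rh6 (0.071). In A512P ninaE lay between them too, at -0.244 beside -0.351 and -0.236. The sign therefore depends on which inner opsins are taken.

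No paired analysis was possible because the deposited tables hold no values per library; leaving out single libraries was not run for the same reason. The depth of each library is unknown here, and precision is that of the authors' SE, 0.071 to 0.12 for the opsins.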

Other observations

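The nearest genes on either side of each opsin, and those within the Rh4 intron, were read from the same tables. None of these 17 genes shares exon sequence with its opsin, and 12 were tested. By the authors' deposited table there were 2 falls and 0 rises in A512P, and 2 falls and 1 rise in JmjC*. Their shares, 16.7% lower in each mutant and 8.33% higher in JmjC*, compare with 10.8% and 14.6% lower and 14.2% higher among all tested genes. One of the neighbours is Trissin, a neuropeptide gene on the opposite strand, whose annotated 3' end lies 30 bases beyond that of Rh6. Trissin fell, with log2 values of -0.47 ± 0.12 in A512P and -1.01 ± 0.12 in JmjC* in the authors' deposited table, with an adjusted p of 9.42e-04 and 1.26e-14, at a mean normalized count of 408 against 12128 for Rh6. Rh6 itself stood at 0.096 in JmjC* in the authors' deposited table, so the neighbouring genes differ in sign there. Beside Rh7 on the same strand, CG9760 fell, with log2 values of -0.40 ± 0.14 in A512P and -0.60 ± 0.14 in JmjC* in the authors' deposited table, with an adjusted p of 0.0276 and 2.10e-04. It lies 469 bases from Rh7, at a mean normalized count of 252, and Rh7 fell in both mutants too. CG9951, 646 bases from Rh4 on the opposite strand, rose by 0.48 ± 0.12 in JmjC* in the authors' deposited table, with an adjusted p of 6.46e-04. The neighbours of ninaE, Pk92B and CG4733, were at 0.011 and 0.0034 in A512P in the authors' deposited table, where ninaE fell. These genes were named after their values were seen, and a part of shared reads in any of these values was not tested.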
